A study of Caenorhabditis elegans with 2 samples.

Results

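The ribosomal protein genes of Caenorhabditis elegans were taken as the protein-coding genes whose symbols begin with rpl- (large subunit), rps- (small subunit) or rla- (acidic proteins of the stalk). There were 81 of them among 19973 protein-coding genes on the nuclear chromosomes, 47 of the large subunit, 31 of the small subunit and 3 of the stalk. Members were picked by symbol alone, but the family was chosen with earlier results of these data known. Chromatin immunoprecipitation followed by sequencing (ChIP-seq) recovers the DNA that lies under a chosen protein. Here the protein was the nuclear hormone receptor NHR-237 with an eGFP tag, in whole L3 larvae of both sexes pooled, in 2 biological replicates of 1 group. The strain was OP228, which carries the mutation unc-119(ed3) on chromosome III and the transgene wgIs228 for nhr-237. The labels do not give the sequence that drives the transgene or the cells that express it, and in whole larvae the signal of all tissues is summed. The labels name no second condition. Genes were therefore set beside other genes and replicate 1 beside replicate 2, with no test.

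A ribosome consists of a large and a small subunit, each built of ribosomal RNA and of many proteins that are needed in near equal amounts, and the genes for these proteins are scattered over the genome and are among the most highly transcribed genes of a growing larva. Nuclear hormone receptors are transcription factors with a zinc finger DNA-binding domain, and nematodes have many more of them than vertebrates. In C. elegans many transcripts receive a spliced leader, so that the annotated start of a gene can lie downstream of the point where transcription begins. Distances below are to the annotated start.

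The authors ranked candidate regions by a signal whose scale is not stated, in a list of 30000 regions for each replicate and for the pooled replicates. They kept 48 peaks past an irreproducible discovery rate (IDR) threshold, a criterion built on the agreement of ranks. Candidates outside these 48 are in the authors' words peaks and background, so a candidate alone is not a bound site. A gene was given the candidate of highest signal with a summit from 1000 bp upstream to 100 bp downstream of its start, here called the promoter. Ranks count from 1, the highest signal. The summit was the middle of the region in all but 1 of the 30000 pooled regions. Read depth was not stated, and the lists stop at the same number of regions, so the only measure of error is the comparison of the 2 replicates.

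The 3 members with an IDR peak, rpl-3, rpl-35 and rpl-20, encode proteins of the large subunit. The DNA within 100 bp of the pooled summit is printed because these sites carry the highest signals of the family, and rpl-15 is added because the same words were found there. The sequences are from the ce11 reference, in RefSeq's copy, read 5′ to 3′ on the strand of the ribosomal protein gene. Capitals mark AACACGC and AAGTGTA on either strand (GCGTGTT and TACACTT on the other), the 7-base words present at all 3 sites. The rpl-3 stretch is chrIII:3867459-3867659 on the plus strand and the rpl-35 stretch chrIII:7854604-7854804 on the plus strand. The rpl-20 stretch is chrIV:4749976-4750176 on the minus strand and the rpl-15 stretch chrIV:654814-655014 on the minus strand.
rpl-3: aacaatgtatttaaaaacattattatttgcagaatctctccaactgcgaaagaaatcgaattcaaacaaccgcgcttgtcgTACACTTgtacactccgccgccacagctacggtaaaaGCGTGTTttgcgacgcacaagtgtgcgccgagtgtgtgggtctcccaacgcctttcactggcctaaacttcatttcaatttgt
rpl-35: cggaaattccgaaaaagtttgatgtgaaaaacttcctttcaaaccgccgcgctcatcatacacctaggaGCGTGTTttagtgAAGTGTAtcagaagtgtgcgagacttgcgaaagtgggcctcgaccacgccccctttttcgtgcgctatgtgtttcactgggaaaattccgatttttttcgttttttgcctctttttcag
rpl-20: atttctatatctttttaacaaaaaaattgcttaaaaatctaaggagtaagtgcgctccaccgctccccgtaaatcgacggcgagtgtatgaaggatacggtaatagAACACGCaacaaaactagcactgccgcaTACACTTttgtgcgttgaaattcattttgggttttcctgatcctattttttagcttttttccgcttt
rpl-15: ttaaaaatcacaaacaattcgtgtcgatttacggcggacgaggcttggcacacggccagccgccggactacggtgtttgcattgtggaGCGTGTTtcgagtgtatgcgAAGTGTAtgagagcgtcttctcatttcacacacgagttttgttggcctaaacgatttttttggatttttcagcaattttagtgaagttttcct

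A few ribosomal protein promoters stood near the top of every list, while most members had either a weak candidate or none. In the pooled list 33 of 81 members (40.7%) had a summit at the promoter, beside 31.1% of all protein-coding genes. The excess was larger near the top: 7 members (8.64%) had a summit among the 1000 regions of highest signal, beside 1.42% of all genes, and 3 (3.7%) had an IDR peak, beside 0.0951%, which is 19 genes in all. Ribosomal protein genes thus made up 3 of the 19 protein-coding genes with an IDR peak at the promoter. The replicates taken alone gave the same picture. Replicate 1 had a summit at 33 members (40.7%, beside 30.5% of all genes) and a top 1000 summit at 5 (6.17%, beside 1.3%). Replicate 2 had a summit at 32 members (39.5%, beside 31.2%) and a top 1000 summit at 8 (9.88%, beside 1.23%). Only rpl-3, rpl-35, rpl-20 and rps-20 were in the top 1000 of both replicates, which is 4 members (4.94%), beside 0.18% (36) of all genes.

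Both counts fell when a summit could belong to 1 gene only, and the share above that of all genes then remained for the top 1000 and for IDR peaks. Where each summit was given to the protein-coding gene with the nearest start alone, 20 members (24.7%) had a pooled summit, beside 25.8% of all genes, so the family's share was no longer above that of all genes. In that assignment 4 members (4.94%) had a top 1000 summit, beside 1.16% of all genes, and 2 (2.47%) had an IDR peak, beside 0.0851%, since the rpl-20 summit lies nearer to its neighbour Y17G9B.5.

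**Figure D1:**
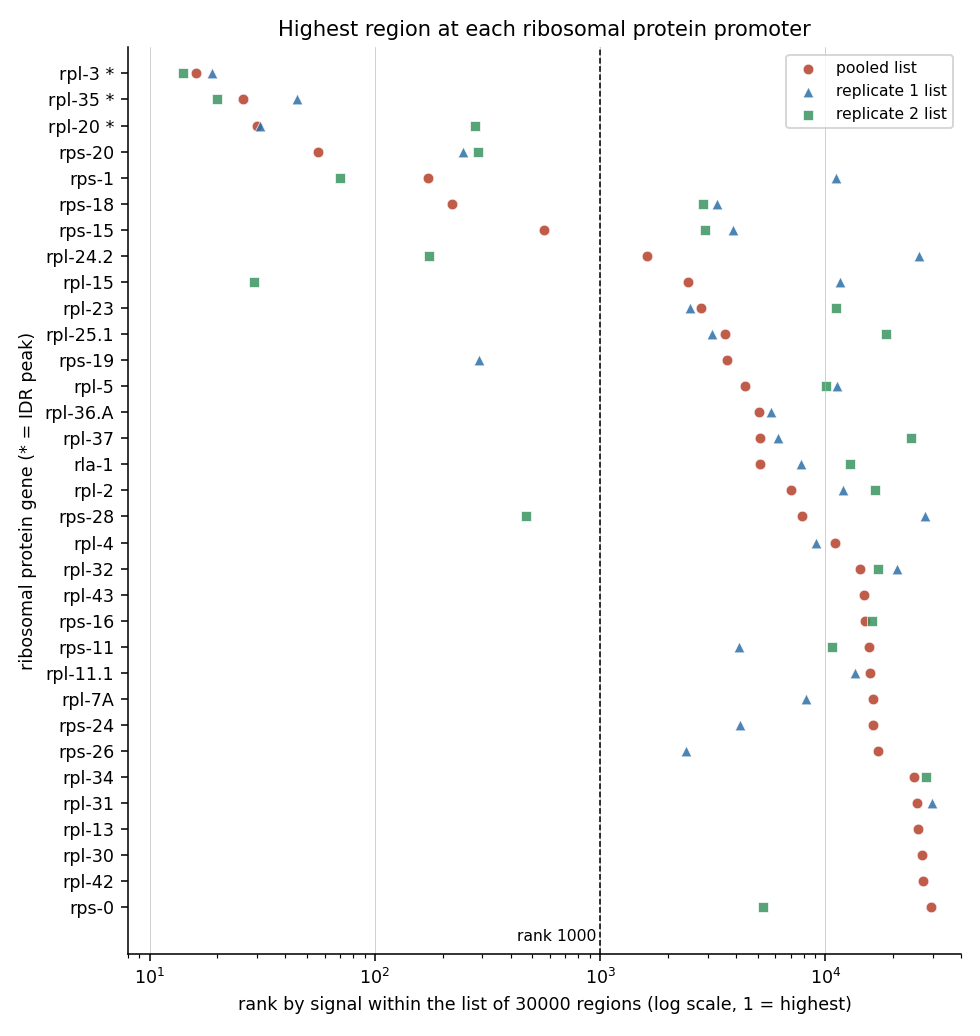
Rank of the highest promoter region of the 33 ribosomal protein genes with a pooled summit, in the pooled list (circles), replicate 1 (triangles) and replicate 2 (squares), on a log axis on which 1 is the highest signal. The genes rpl-3, rpl-35, rpl-20 and rps-20 lie left of rank 1000 in all 3 lists, and below them the ranks of the 2 replicates spread widely.

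The gene rpl-3 encodes a core protein of the large subunit that reaches toward the peptidyl transferase centre. Its promoter had a signal of 89.0 in the pooled list, 38.3 in replicate 1 and 44.8 in replicate 2. These were ranks 16, 19 and 14, so that both replicates placed it at nearly the same height. The summit lay 295 bp upstream of the start in the pooled list, 293 bp in replicate 1 and 278 bp in replicate 2. The gene rpl-35 encodes a protein at the exit of the nascent chain tunnel. Its signal was 60.1 pooled, 27.2 in replicate 1 and 32.8 in replicate 2, at ranks 26, 45 and 20. Its summits were 430, 450 and 394 bp upstream and thus lay farther from the start than those of rpl-3. The gene rpl-20 encodes another protein of the large subunit. Its signal was 57.1 pooled, 33.0 in replicate 1 and 19.6 in replicate 2, at ranks 30, 31 and 279. Replicate 2 was therefore the weaker for rpl-20, and the stronger for rpl-3 and rpl-35 by rank. Its summits were 298, 275 and 286 bp upstream.

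Next in order came 4 genes of the small subunit. The gene rps-20 (signal 41.4, rank 56, on chromosome I) had no IDR peak, and the lowest signal in the IDR set was 42.7. That set rests on the agreement of ranks, so these signals do not tell how near rps-20 came to its threshold. At rps-20 the replicates gave 20.7 at rank 245 and 19.5 at rank 287. The summits lay 271, 271 and 269 bp upstream in the pooled list and the 2 replicates. No other member in the top 1000 had summits so close together in the 3 lists. The gene rps-1 (34.5, rank 172) was carried by replicate 2, where it had a signal of 23.1 at rank 70, while replicate 1 had 10.9 at rank 11087. Its pooled summit lay 95 bp upstream, nearest to the start of all members in the top 1000. The gene rps-18 (33.6, rank 219) had 14.2 and 14.3 in the replicates, at ranks 3316 and 2850. The gene rps-15 (30.3, rank 563) had 13.8 and 14.3, at ranks 3870 and 2915. Both thus reached the pooled top 1000, where the signal at rank 1000 was 28.4, without being in the top 1000 of either replicate. In each of them the summits of the 2 replicates lay within 18 bp of each other. The pooled regions of these 4 genes were chrI:14469199-14469548, chrIII:4475648-4475997, chrIV:14825067-14825416 and chrI:8816322-8816671, in the order above. That of rps-18 had its summit inside the neighbouring gene sec-61.A, and the other 3 summits lay between protein-coding genes. Over the 33 members 9 summits (27.3%) were inside a protein-coding gene, beside 37.9% over all genes.

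Below the top 1000 the replicates disagreed more. The gene rpl-24.2 (pooled 26.8, rank 1610) had a signal of 20.7 at rank 174 in replicate 2 and of 8.12 at rank 26112 in replicate 1. The gene rpl-15 (25.2, rank 2458), for a protein deep in the large subunit, had 26.4 at rank 29 in replicate 2 and 10.8 at rank 11603 in replicate 1. The summits of its replicates were 366 and 176 bp upstream, 190 bp apart and so not matched within 100 bp, and the pooled summit at 338 bp lay near that of replicate 2. For rps-19, a gene of the small subunit, the order was the reverse. It had 20.2 at rank 289 in replicate 1, no promoter summit in replicate 2 and a pooled signal of 23.7 at rank 3651. The gene rpl-23 had 24.7 at pooled rank 2804, 994 bp upstream at the very edge of the window, with 14.9 in replicate 1 and 10.7 in replicate 2. The summits of the replicates for rpl-23 were 654 bp apart. The gene rpl-25.1 (23.8, rank 3567), on X, had its pooled summit 94 bp downstream of the start, with 14.4 and 9.07 in the replicates. It was the only member whose highest pooled summit lay inside the window downstream of the start. That is 3.03% of the members with a pooled summit, beside 10.2% of all genes with one. The 5 members with the largest gap in rank between the replicates were rps-28, rpl-24.2, rpl-37, rpl-25.1 and rpl-15. Of these rps-28 had the widest, with 18.4 at rank 467 in replicate 2 and 7.92 at rank 27625 in replicate 1. At the other end, rpl-30 had 14.5 (rank 26820), rpl-42 had 14.4 (rank 27035) and rps-0 had 14.0 (rank 29343), close to the lowest signal in the pooled list, 13.8. Of these 3, rps-0 had a summit in replicate 2 (12.7, rank 5299) and the other two had none in either replicate.

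Over the 33 members with a pooled summit the median signal was 21.0 and the median rank 7065, beside 17.9 and 13918 over the 6207 genes with one. In replicate 1 the medians were 11.5 and rank 9095 over 33 members, beside 10.3 and 13597.5. In replicate 2 they were 10.5 and rank 11629.5 over 32 members, beside 9.92 and 14222. The shift of the median was thus small in signal, and in replicate 2 also in rank. These medians cover members with a summit and say nothing of the rest.

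Every member was placed by the lists that held it. There were 18 members (22.2%, beside 11.8% of all genes) with a promoter summit in the pooled list and in both replicates, 8 in the pooled list and replicate 1 (9.88%, beside 8.61%), and 3 in the pooled list and replicate 2 (3.7%, beside 8.35%). The pooled list alone held rpl-13, rpl-30, rpl-42 and rpl-43 (4.94%, beside 2.37%). Replicate 1 alone held 7 members (8.64%, beside 8.6%), with signals from 7.62 (rps-3) to 10.4 (rps-9 and rps-21), the others being rpl-10, rpl-11.2, rpl-25.2 and rps-23. Replicate 2 alone held 11 (13.6%, beside 9.6%), with signals from 7.61 (rps-6) to 12.6 (rpl-1), the others being rpl-16, rpl-17, rpl-33, rpl-36, rpl-6, rps-12, rps-13, rps-14 and rps-5. None of these 18 was in the top 5000 of its list. The remaining 30 members (37%, beside 49.2% of all genes) had no promoter summit in any list. They included rla-0 and rla-2 of the stalk, 17 genes of the large subunit and 11 of the small subunit.

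At most ribosomal protein promoters with a summit in both replicates the summits lay close together. Of the 18 members with a summit in both replicates, 13 (72.2%) had them within 100 bp, beside 42.8% of the 2656 genes with a summit in both. That is 16% of all members, beside 5.7% (1138) of all genes. The median gap of these 13 was 15 bp, beside 27 bp over the 1138. Spearman's rho between the signals of the replicates, given as a description across genes of the same 2 lists, was 0.423 over the 13 members and 0.173 over the 1138 genes. With the farther summits included it was 0.243 over the 18 members and 0.0888 over the 2656 genes. All 7 members of the pooled top 1000 were among the 13, and the others were rpl-24.2, rpl-25.1, rpl-5, rpl-37, rpl-2 and rpl-32. No share over all genes with a pooled top 1000 summit stands beside the 7, and the pooled list draws on both replicates. The 7 are therefore not read as a trait of the family. At rpl-5 the summits of the replicates were 1 bp apart, with signals of 10.9 and 11.0, and at rpl-2 6 bp apart, with 10.7 and 9.46.

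**Figure D2:**
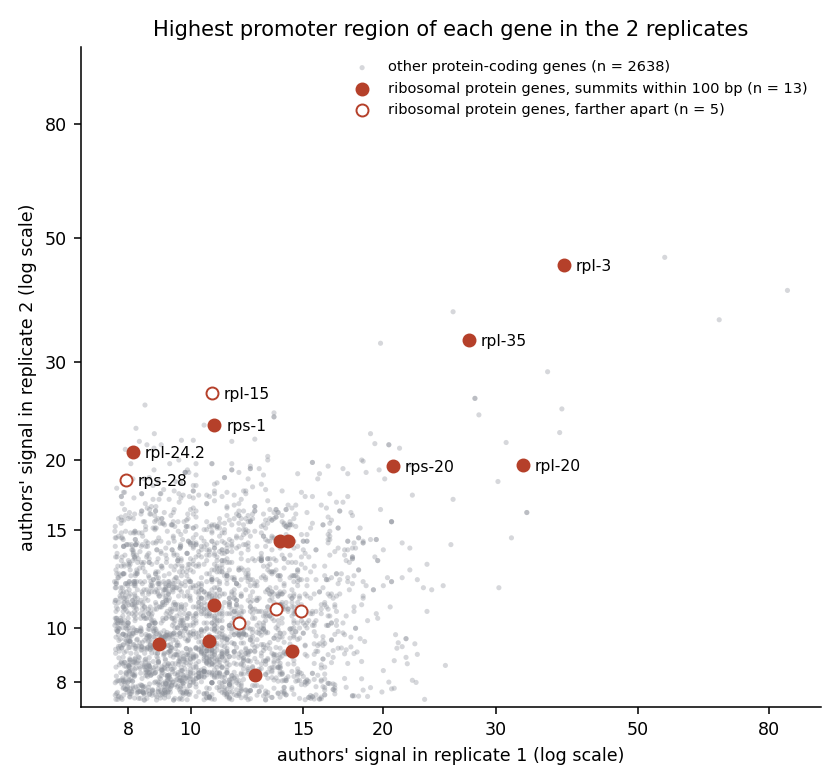
Authors' signal of the highest promoter region in replicate 1 (horizontal) and replicate 2 (vertical), both on log axes, for genes with one in both lists. Grey points are other protein-coding genes, filled red points the 13 ribosomal protein genes whose summits lie within 100 bp and open red points the 5 whose summits are farther apart. The genes rpl-3, rpl-35, rpl-20 and rps-20 are high in both, and rpl-15, rps-1, rpl-24.2 and rps-28 are high in replicate 2 alone.

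More of the summits at ribosomal protein promoters lay at an intermediate distance than over all genes. Of the 33 highest pooled summits 18 (54.5%) lay between 200 and 500 bp upstream, a zone picked after the positions were seen, beside 27.5% over all genes, whose summits were spread evenly over the window. In replicate 1 the share was 39.4% (13 of 33) beside 27.4%, and in replicate 2 it was 50% (16 of 32) beside 27.6%. The median distance in the pooled list was 338 bp upstream, with an interquartile range from 263 to 540 bp, beside 423 bp and a range from 150 to 708 bp over all genes. Among the 7 members in the top 1000 the zone held 6, all but rps-1, beside 31.1% of the 283 genes with a top 1000 summit. Among the 26 weaker members it held 12 (46.2%), beside 27.3% of the weaker genes.

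**Figure D3:**
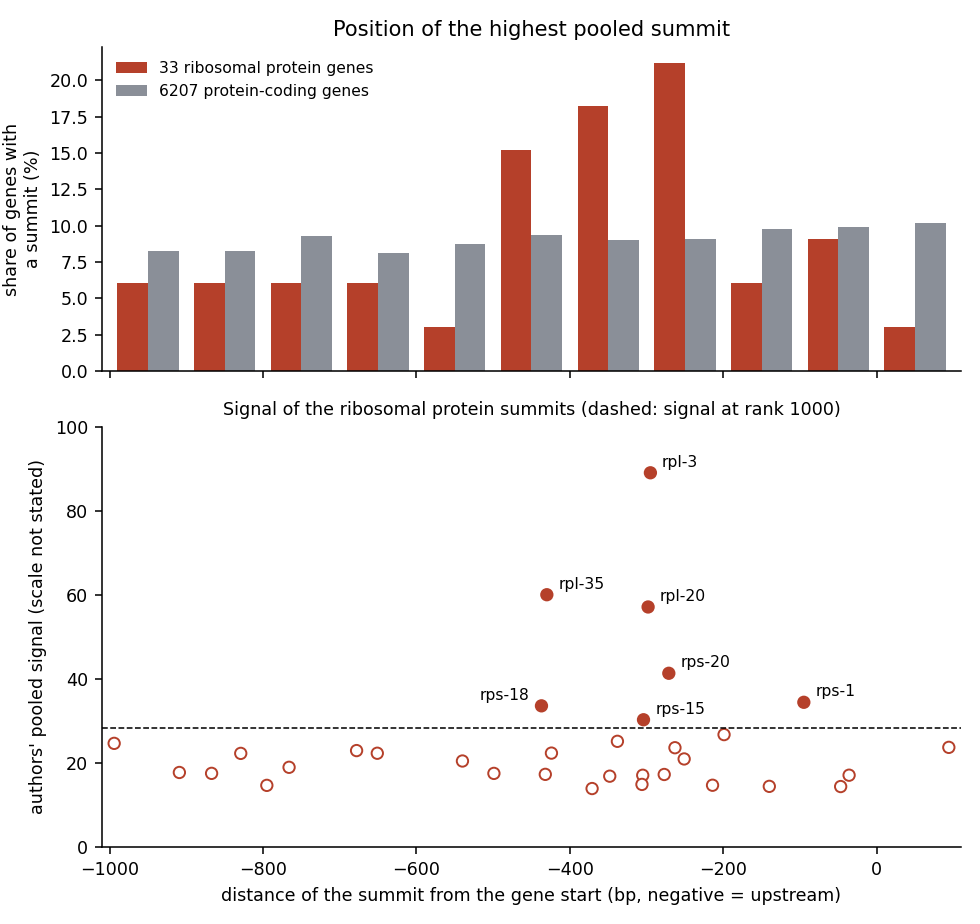
Upper panel, share of genes whose highest pooled summit falls in each 100 bp bin relative to the gene start, for 33 ribosomal protein genes (red) and 6207 protein-coding genes (grey). Lower panel, the authors' pooled signal of each ribosomal protein summit by position, filled where the region is in the top 1000. The red bars exceed the grey from 500 to 200 bp upstream, where 6 of the 7 filled points lie.

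In the pooled list the high signals around these genes lay at or upstream of the start. No member had a top 1000 summit in the gene body beyond 100 bp downstream of the start, beside 2.75% of all genes. None had one within 1000 bp after the gene end, beside 1.04%, and none in the window from 3000 to 2000 bp upstream, beside 1.02%. These shares over all genes are too low for 81 members to show a lack. In the window from 2000 to 1000 bp upstream 2 members had one (2.47%, beside 1.21%), rps-8 and rps-16. The region at rps-8 (30.7, rank 498) lay 1089 bp upstream, just outside the promoter window, and the replicates had it at 1089 and 1082 bp with 16.6 and 12.4. The region near rps-16 (30.9, rank 470) lay 1876 bp upstream and was also at the divergent promoters of mut-15, whose start at 126 bp was the nearest, and of fib-1, the fibrillarin gene. With candidates of any rank, 14 members (17.3%) had a pooled summit in the gene body, beside 52% of all genes. Gene bodies of members are short, with a median window of 653 bp beside 1926 bp, and per megabase the pooled list had 285 summits in members' bodies and 311 in those of all genes. At promoters the density was 381 per megabase for members and 310 for all genes. The replicates had no top 1000 summit in a member's body either. After gene ends replicate 1 had 2 (rpl-34 and rps-11, 2.47% beside 1.22% of all genes) and replicate 2 had 3 (rpl-27, rps-18 and rps-27, 3.7% beside 1.05%), with no gene in common and none in the pooled list. From 3000 to 2000 bp upstream each replicate had 1 member, rpl-32 in replicate 1 (1.23%, beside 1.07%) and rpl-30 in replicate 2 (1.23%, beside 0.986%). From 2000 to 1000 bp upstream replicate 1 had rps-25 (1.23%, beside 1.01%) and replicate 2 had none, beside 1.1%.

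**Figure D4:**
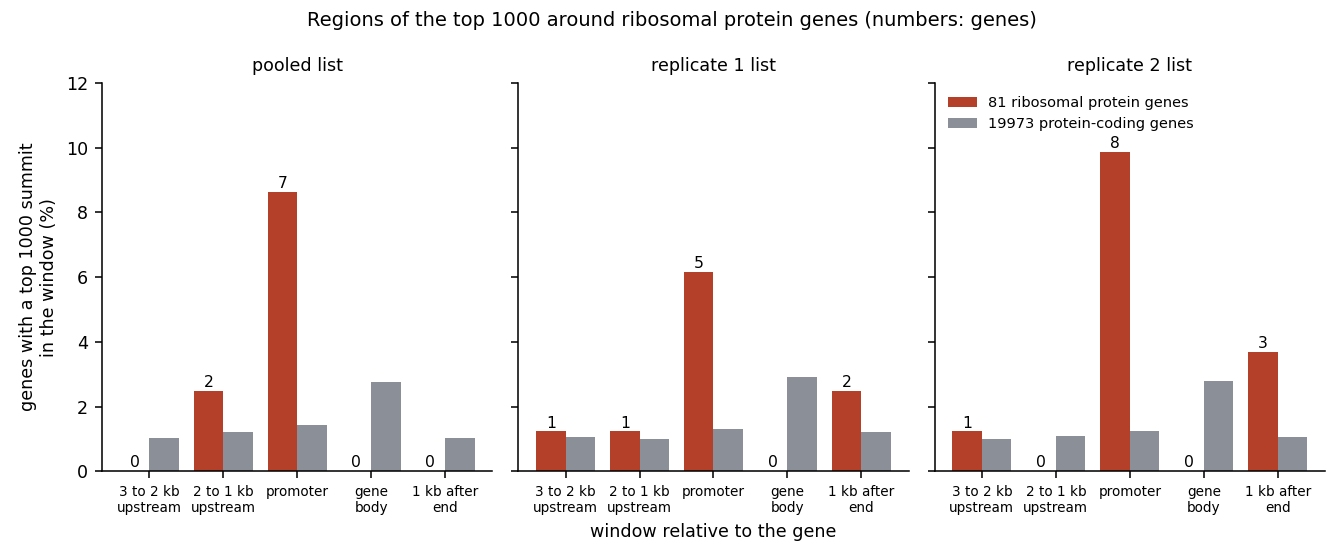
Share of genes with a summit of the top 1000 regions in 5 windows around the gene, for 81 ribosomal protein genes (red, with the number of genes above the bar) and 19973 protein-coding genes (grey), in the pooled list and each replicate. The promoter bar is the highest red bar in each list, at 8.64%, 6.17% and 9.88%, and the gene body holds none.

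Many of the promoters are shared with a neighbour. An opposite-strand protein-coding start within 1000 bp upstream, a divergent promoter, was found for 48 members (59.3%), beside 17.7% of all genes. Of the 33 pooled summits 20 (60.6%) also lay in the promoter window of another protein-coding gene, beside 19% over all genes and 29.3% over genes in the top 1000. In 19 of the 20 the other gene ran in the opposite direction, the exception being rps-28 with Y41D4B.4. The directions at shared summits over all genes were not counted, so the 19 only describe these members. A summit between such genes cannot be assigned to one of them from its position. The rpl-20 summit lay 298 bp upstream of rpl-20 and 164 bp upstream of Y17G9B.5, and that of rps-20 lay 271 bp from rps-20 and 126 bp from ekl-4. The rps-18 summit lay 437 bp upstream of rps-18 and 22 bp downstream of the start of sec-61.A, which encodes the pore subunit of the endoplasmic reticulum translocon. That of rps-1 lay 95 bp from rps-1 and 673 bp from ifet-1, a translational repressor that binds the cap-binding protein. The rps-15 summit lay 304 bp from rps-15 and 477 bp from F36A2.9. In 3 of these 5 pairs the neighbour's start was thus the nearer, and over all 33 summits 20 (60.6%) were nearest to the member's own start, beside 82.2% over all genes.

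Among lower ranks rpl-15 shared its summit with K11H12.8, rpl-30 with pab-1, the poly(A)-binding protein gene, and rps-19 with hsr-9. The genes rpl-3 and rpl-35, with the highest signals of the family, shared theirs with no other protein-coding promoter. Members with and without a divergent start were counted apart, with no test. In all 19 of 48 divergent members (39.6%) and 14 of 33 others (42.4%) had a pooled summit, and 5 (10.4%) and 2 (6.06%) a top 1000 one. Over all genes the shares were 30.4% and 31.2% for any summit and 1.86% and 1.32% for the top 1000. The zone from 200 to 500 bp held 13 of the 20 shared summits (65%) and 5 of the 13 others (38.5%), beside 28.6% and 27.2% over all genes. In 3 pairs the neighbours were both members: rps-10 with rpl-24.1, rps-14 with rpl-36 and rpl-39 with rps-30. Of these, rps-14 and rpl-36 share a single summit, in replicate 2, and count there as 2 members, and the other pairs had no promoter summit in any list.

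By subunit, 21 of 47 large subunit genes (44.7%) and 11 of 31 small subunit genes (35.5%) had a pooled summit, and 3 (6.38%) and 4 (12.9%) a top 1000 one. All 3 IDR peaks were at large subunit genes. Of the 3 stalk genes rla-1 had a candidate, with 22.3 pooled at rank 5145, 11.9 in replicate 1 and 10.2 in replicate 2. By chromosome, the 7 top 1000 members were 3 of 18 on III (16.7%, beside 1.89% of the genes there), 2 of 18 on IV (11.1%, beside 1.25%) and 2 of 25 on I (8%, beside 1.22%). There was none among the 10 members on II, the 8 on V and the 2 on X, beside 1.16%, 1.24% and 2.01% of the genes there. With so few genes in each class these counts describe the lists only. Some symbols differ only in a suffix, which does not by itself show that the genes encode copies of the same protein. Of these genes, rpl-24.2 and rpl-25.1 had summits in all 3 lists. Their partners did not, rpl-24.1 having no promoter summit and rpl-25.2 one in replicate 1 alone (8.32, rank 24698). Of the pair rpl-11.1 and rpl-11.2, the first had a summit in the pooled list (17.3, rank 15714) and in replicate 1 (10.3), the second in replicate 1 alone (7.73). The pair rpl-41.1 and rpl-41.2 had none.

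Among the other lists of translation genes, each held at most 1 gene in the top 1000 of the pooled list. They hold 3 to 70 genes, so shares and not counts can be set beside the family's 8.64%. Of 70 mitochondrial ribosomal protein genes 22 (31.4%) had a pooled summit and 1 (1.43%) a top 1000 one, beside 31.1% and 1.42% of all genes. In replicate 1 there were 2 in the top 1000 (2.86%, beside 1.3%) and in replicate 2 none. The pooled gene was mrpl-17, with 31.0 at rank 461 pooled, 21.1 in replicate 1 and 9.40 in replicate 2. Of 32 initiation factor genes 8 (25%) had a summit and 1 (3.12%) a top 1000 one. This was eif-3.C, a subunit of the scaffold factor of initiation, with 39.2 at rank 72 pooled and 249 bp upstream, 18.8 at rank 512 in replicate 1 and 19.0 at rank 359 in replicate 2. Its pooled rank lay between those of rps-20 and rps-1, and its summit in the same zone upstream. None of 32 aminoacyl-tRNA synthetase genes was in the top 1000, the highest being iars-1, the isoleucyl-tRNA synthetase gene, with 28.3 at rank 1046. Of 8 elongation and release factor genes 3 (37.5%) had a summit and none was in the top 1000. The highest was eef-1G with 17.2 at rank 16118. Of 18 ribosome biogenesis genes 2 (11.1%) had a summit, fib-1 (30.9, rank 470) and nol-9 (18.9, rank 11287). That of fib-1 was in the top 1000 (5.56% of the list), and neither replicate had a top 1000 one. The ribosomal fusion genes ubq-2 and ubl-1, which encode a ribosomal protein joined to ubiquitin or a ubiquitin-like protein, had 17.1 and 14.3 at ranks 16572 and 27777, and rack-1, for a small subunit scaffold, had none. No gene of these lists had an IDR peak at the promoter, beside 3 of 81 ribosomal protein genes. Over all genes the share was 0.0951% for IDR peaks and 1.42% for the top 1000. Both are too low for lists of this size to show a lack.

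**Figure D5:**
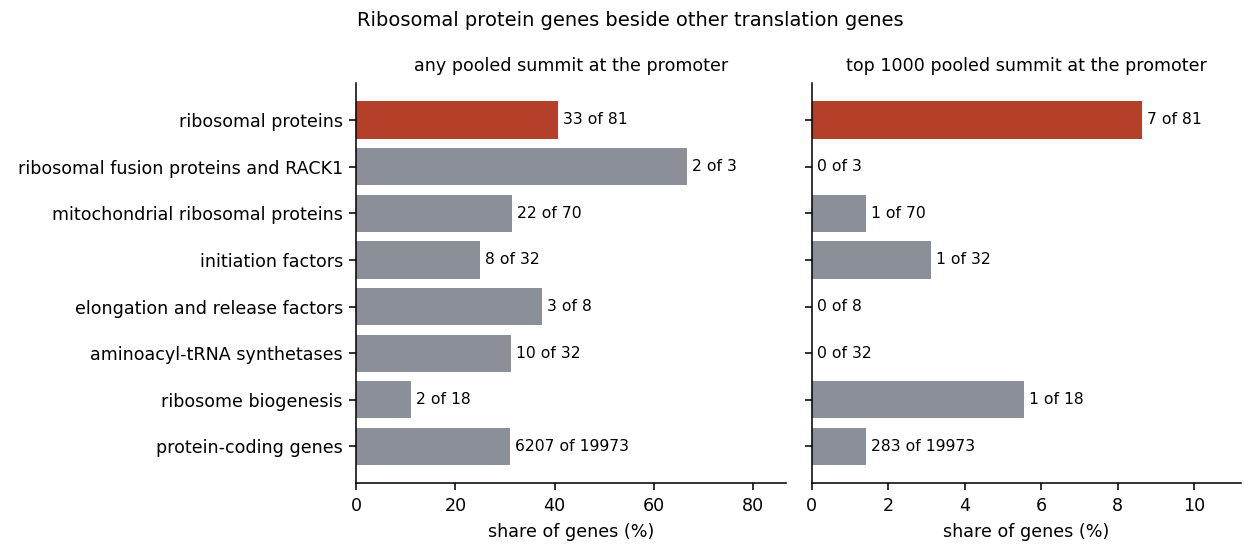
Share of genes with any pooled summit (left) and with a top 1000 pooled summit (right) at the promoter, for the ribosomal protein genes (red), other lists of translation genes and all protein-coding genes (grey), with counts beside each bar. The ribosomal protein genes have 7 of 81 (8.64%) in the top 1000. Each other list has 1 gene or none, with the highest share, 5.56%, in ribosome biogenesis.

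The sequences printed for rpl-3, rpl-35, rpl-20 and rpl-15 hold both marked words within 100 bp of the summit. The words were read from the first 3 of these stretches, so their presence there is the choice itself and no finding. The stretch at rpl-15 was not used to pick them. Among the 33 members rpl-15 was the only other that held either word. Over all 6207 promoter summits AACACGC occurred within 100 bp of 1.51% and AAGTGTA of 3.3%. Both together occurred at 8 genes (0.129%), which are rpl-3, rpl-35, rpl-20 with its neighbour Y17G9B.5, rpl-15 with its neighbour K11H12.8, cdc-48.1 and cox-5A. Of these, cdc-48.1, an AAA ATPase gene, ranked 13 and cox-5A, for a subunit of cytochrome c oxidase, ranked 36 in the pooled list.

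Over the 30000 pooled regions, wherever they lay, 19 (0.0633%) held both words, and 5 of the 48 IDR peaks (10.4%) did. Of these 5, 3 are the peaks at rpl-3, rpl-35 and rpl-20 that the words were read from. The 10.4% is therefore in large part fixed by that choice. Without the 4 regions at members, 15 of the 19 regions remained, of which 2 were IDR peaks and 4 were in the top 1000. The order and spacing of the words were not constant. At rpl-35 and rpl-15 the gene strand read GCGTGTT and then AAGTGTA, with 6 and 13 bases between them, at rpl-3 it read TACACTT and then GCGTGTT with 30 bases, and at rpl-20 AACACGC and then TACACTT with 21. Over whole promoter windows the words lay within the length of a printed stretch of each other at 70 of 19973 genes (0.35%). Apart from the 3 genes they were read from, rpl-15 was the only member among these. Of the 66 genes that are no members, 19 (28.8%) had a pooled summit, beside 31.1% of all genes. A top 1000 summit was at 6 (9.09%), beside 1.42%. The 6 include Y17G9B.5, whose summit at rank 30 is the rpl-20 summit the words were read from, so it is no independent case. The 19 also include K11H12.8, which shares the rpl-15 summit.

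Other motifs were searched on both strands within 100 bp of the highest pooled summit. AGCGCG was found at 6 of 33 members (18.2%), rpl-3, rpl-35, rpl-24.2, rpl-5, rps-11 and rpl-7A, beside 3.13% over all genes. Over the 283 genes with a top 1000 summit its share was higher, 10.6%, and 2 of the 7 members there held it. Within 50 bp it was at 3 members (9.09%), beside 1.48% over all genes. AGGTCA, a core site of many nuclear receptors, was at 1 member, rla-1 (3.03%, beside 5.54%). The related AGTTCA was at 5 members (15.2%, beside 13.4%), and both shares were near those over all genes. At the 7 members in the top 1000 neither was found, beside 3.53% and 10.6% of the genes with a top 1000 summit, shares too low for 7 genes to show a lack. GAGAGA was at 8 (24.2%, beside 13.6%) and ACACAC at 4 (12.1%, beside 8.33%). Over the genes with a top 1000 summit these 2 were at 25.1% and 16.3%, no lower than at members. TTTTTTTT, at 6 (18.2%), was near the share over all genes (18.8%). CTGCGTC was at 1 member (3.03%, beside 3.08%) and CACGTG at 1 (3.03%, beside 3.59%). TGATAA was at 8 (24.2%, beside 19.2%) and GGGCGG at 2 (6.06%, beside 4.27%). The choice of AGCGCG and of both dinucleotide repeats drew on earlier results of these data. The median GC content of the stretches was 38.3% at members and 35.8% over all genes. The highest members differed in it, with 44.8% at rpl-3, 45.3% at rpl-35, 38.3% at rpl-20, 33.8% at rps-20 and 30.3% at rps-1. The part of GC content and of these words in the signal was not tested.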

How the data were processed

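Lists of regions in ce11 were used, 1 for each replicate, 1 for the pooled replicates and the IDR peaks. Per the labels, fragments were 150-350 bp. The signal of a region is the value the authors deposited from their peak caller, pooled or per replicate. Its scale is not stated, and regions were therefore ranked by it inside each list only. Peak caller, read aligner and the threshold of the IDR step are not given in the labels or file headers. Summits, whose deposited position counts from 0, were made 1-based. The ce10 lists, the q column and the control library were not used here. Replicate numbers are those of the labels.

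Genes were those of Ensembl release 115 (WBcel235, which is ce11), and sequence came from the RefSeq copy of that assembly. The ends of the regions lay within its chromosome lengths. For each gene the summit of highest signal in the promoter window was taken in each list. Summits of the replicates within 100 bp were called matched. Counts of members stand beside the same count over all 19973 protein-coding genes, with no test, since there was 1 group. The assignment was tested on simulated regions.

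The members, gene lists and motifs were chosen with earlier results of these data known. Named genes were those with an IDR peak, the 12 of highest and 3 of lowest pooled signal, the 5 with the widest gap in rank between replicates and up to 3 of highest signal in each other list. Members in classes of few genes, neighbours and rpl-15's sequence were named after their values were seen. The words AACACGC and AAGTGTA were chosen from the sequences, and the zone from 200 to 500 bp upstream from the positions. Alternatives were other promoter windows, starts, assignments, list lengths, matching distances and motif windows, and each replicate alone. The work used pandas 2.3.3, scipy 1.17.1 and numpy 2.4.6 under Python 3.11.15.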

Additional observations from a re-analysis of the deposited data

How the results depend on the processing

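No paired analysis was possible because there is 1 group. Of 49 values under the alternatives, 34 stayed close to the main value (counts within 1.5 times, medians within the SD between the replicates) and 15 moved further. The median distance of 338 bp became 298 bp with a 500 bp window, 722 bp with a 2000 bp window, 304.5 bp with summits given to the nearest start and 298 bp with the top 5000 regions. Each replicate alone gave 380 to 409 bp. With the nearest start the count of members with a pooled summit was 20 and that in the top 1000 was 4. With the top 5000 regions 13 members had a summit, their median signal was 30.3 and 6 had matched summits, which follows from fewer regions. No count over all genes stands beside these, so they do not show how the family's excess changes. The replicates' median signals of 10.5 to 11.5 are on their own scales. The top 24 IDR peaks held 1 member, and AGCGCG within 50 bp was at 3. With the 500 bp window 30.9% of members and 18.9% of all genes had a pooled summit, with the 2000 bp window 54.3% and 50.4%. Just outside the window, rpl-24.1 and rpl-7 each had a pooled summit 1075 bp upstream, with signals of 19.7 and 24.5, and would count with a wider one. Depth is not given, so a member with no candidate has no stated detection limit.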
